A study of Mus musculus with 5 samples.

Results

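Among the 9 genes of the EGR, NAB and SRF group, RNA of Egr1 and Egr2 was 16.7-fold and 3.09-fold higher in natural killer (NK) cells labelled Fli1 KO. The other 7 genes, with log2 fold changes from −0.27 (Elk4) to 0.49 (Srf), were not called. The 9 genes, of 56691 listed in the count table, were taken by symbol: the EGR transcription factors Egr1, Egr2 and Egr3, the corepressors Nab1 and Nab2, the serum response factor Srf and its ETS-domain partners Elk1, Elk3 and Elk4. The group was chosen on measured values of the same comparison, in which Egr1 was already known to have the largest increase, so the differences given for these 9 genes are a description and carry no test. The cells were NK cells from mouse spleen, and 3 libraries were labelled Fli1 KO and 2 were labelled NTC, the arm it is compared with after CRISPR editing; FLI1 is an ETS transcription factor of blood cells. The labels give no strain, age, culture or time since editing, and do not say whether libraries came from separate animals. All p-values therefore measure only the spread between these libraries, which may be technical.

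EGR factors are zinc-finger proteins that bind GC-rich sites in promoters. Their genes are immediate early genes: transcription starts within minutes of a signal and needs no new protein. SRF sits on a short AT-rich element, the CArG box, in many of these promoters, and the ternary complex factors ELK1, ELK3 and ELK4 bind beside it at ETS cores and switch transcription on once MAP kinases phosphorylate them. NAB1 and NAB2 bind EGR1, EGR2 and EGR3 and repress their targets, and Nab2 is itself an EGR target, which closes a feedback loop. In lymphocytes EGR2 and EGR3 are best known for restraining activation. The ternary complex factors belong to the same ETS family as FLI1.

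The sequences before the start sites of Egr2, Srf and Nab2 are shown because the element that SRF reads is spelled out in those of Egr2 and Srf and not in that of Nab2. Each is written 5′ to 3′ on the gene's strand, from RefSeq on GRCm38.p6 (the assembly also called mm10), without bases that GENCODE M21 places in an exon of the gene. Capitals mark the CArG boxes. The Egr2 stretch is chr10:67537619-67537868 on the plus strand, which is intronic in a transcript that starts further upstream. The Srf stretch is chr17:46556176-46556412 on the minus strand, and the Nab2 stretch is chr10:127666711-127666953 on the minus strand. The Nab2 stretch also lies inside the annotated gene, whose upstream end is at 127668568. The sequence before that end was not searched.
Egr2: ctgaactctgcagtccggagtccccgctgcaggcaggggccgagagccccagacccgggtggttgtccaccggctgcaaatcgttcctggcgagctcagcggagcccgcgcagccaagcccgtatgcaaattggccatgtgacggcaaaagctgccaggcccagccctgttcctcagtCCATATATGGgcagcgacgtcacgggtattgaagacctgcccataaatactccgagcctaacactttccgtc
Srf: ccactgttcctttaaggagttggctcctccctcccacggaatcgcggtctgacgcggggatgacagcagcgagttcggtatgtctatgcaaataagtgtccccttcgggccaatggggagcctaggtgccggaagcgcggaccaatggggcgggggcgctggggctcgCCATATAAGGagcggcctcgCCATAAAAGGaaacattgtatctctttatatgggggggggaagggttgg
Nab2: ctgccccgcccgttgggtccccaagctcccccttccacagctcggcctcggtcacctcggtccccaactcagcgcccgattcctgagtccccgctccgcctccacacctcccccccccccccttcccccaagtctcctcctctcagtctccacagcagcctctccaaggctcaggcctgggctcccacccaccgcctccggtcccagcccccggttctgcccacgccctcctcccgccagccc

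The Egr2 stretch held 1 CArG box, at 67537797 to 67537806, and the Srf stretch 2, at 46556235 to 46556244 and 46556215 to 46556224. The Nab2 stretch held 0. Over whole RefSeq windows of 300 bases, from 250 before to 50 after each start, 7 of the 9 genes had an entry. Egr1 and Egr3 had none. A CArG box, which reads the same way on both strands, was found in 4 of the 5 Egr2 windows and in the 1 Srf window. The overlapping Egr2 windows hold the same box, CCATATATGG, and a separate window holds CCTTTTTTGG, so the 4 windows do not hold 4 separate boxes. The 7 windows of Nab1, Nab2, Elk1, Elk3 and Elk4 held 0, and 1.63% of 32851 windows of all genes hold one. The ETS core GGAA, on either strand, occurred 2 to 6 times in every window of the 7 genes with an entry, but 96.0% of all windows hold it, with a median of 3. The EGR site GCGNGGGCG, on either strand and overlapping the GC boxes of many promoters, was present 3 times in the Nab1 window and 1 time each in those of Srf, Elk3 and Elk4 (1 of its 3), against 5.55% of all windows. It was not in the windows of Egr2, Nab2 or Elk1. Such matches describe letters in these windows only and not binding.

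The libraries held between 4718390 and 5643791 counts, and 30580 genes had enough counts to be tested. All 9 genes were among them. Each library had counts on 49538 to 50445 of the 56691 listed genes. The gene with the most counts, Gm10800, held 13.8% to 16.4% of them in Fli1 KO, 10.3% in NTC 1 and 19.0% in NTC 2. Its part in the scaling was not tested. Levels are CPM, counts scaled to library totals adjusted by TMM factors. Fli1 RNA, the edited gene, lay at 320 to 390 CPM in Fli1 KO and 279 to 322 CPM in NTC, and since CRISPR edits can leave a transcript countable, this does not check the labels. The 10 NK markers summed to 8955 to 13311 CPM in Fli1 KO and to 9568 and 6462 CPM in NTC. Gzma, Gzmb, Il2rb and Prf1 made up most of these sums. Ncr1, Klrk1 and Tbx21 were lower in every Fli1 KO library than in both NTC libraries (log2 fold changes −0.34, −0.27 and −0.48). Il2rb and Prf1 were higher in every one (0.50 and 0.87). The other NK markers overlapped between groups, and none of the 10 was called. Of the 34 markers of B cells, T cells, myeloid cells, erythroid cells and platelets, 3 lay over 3 times background (Ighm, Zbtb7b and Itgax), and the others lay between 0.0731 (Hba-a2) and 2.68 (Cd3d) times background. Among these, Cd3g lay at 2.62, Ppbp at 2.65 and Pf4 at 2.12 times background, and Lyz2 at 0.658, Cd79a at 0.692 and Cd3e at 1.19. No marker was at 0 in every library. Summed B cell markers lay at 79.1 to 94.7 CPM in Fli1 KO and 107 and 114 CPM in NTC, T cell markers at 130 to 158 and 135 and 143, myeloid markers at 327 to 348 and 239 and 353, erythroid markers at 6.78 to 12.1 and 10.9 and 12.1, and platelet markers at 18.7 to 26.4 and 24.1 and 55.8. Of these sums, that of the B cell markers alone did not overlap between groups, and the gap lay in Ighm (51.2 to 64.7 CPM in Fli1 KO, 86.0 and 71.0 CPM in NTC, not called). The part of these cells in the results was not tested. Background is the count density on 1455 olfactory and vomeronasal receptor genes that NK cells do not use, scaled to a gene's exon length. In bulk RNA, fewer cells with a transcript and less of it per cell cannot be told apart.

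Egr1 (ENSMUSG00000038418, GRCm38 chromosome 18, 34859823 to 34864984, plus strand) encodes the EGR factor most widely used as a sign of recent MAP kinase signalling. Its RNA stood at 972, 599 and 812 CPM in Fli1 KO 1, 2 and 3, and at 52.2 and 42.8 CPM in NTC 1 and 2. Every Fli1 KO library lay far above both NTC libraries, and the groups did not overlap. Fli1 KO averaged 794 ± 187 CPM (SD, n = 3) against 47.5 ± 6.62 CPM (SD, n = 2) in NTC, a 16.7-fold difference (log2 fold change 4.06, SE 0.21, 95% interval 3.62 to 4.50). Egr1 ranked 1 of all 30580 tested genes by log2 fold change and by p. The NTC level was itself above background, at 6.70 times the 7.04 CPM expected from exon length. Among the Fli1 KO libraries Egr1 varied 1.62-fold, with a coefficient of variation of 23.6% where counting error alone gives 1.57%. The summed NK markers ran in the same order in these 3 libraries, highest in Fli1 KO 1 and lowest in Fli1 KO 2, and their part in the Egr1 spread was not tested.

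Egr2 (ENSMUSG00000037868, GRCm38 chromosome 10, 67535475 to 67542188, plus strand) encodes a close relative that restrains activated T cells. It was measured at 106, 95.1 and 94.5 CPM in Fli1 KO 1 to 3 and at 31.2 and 32.6 CPM in NTC 1 and 2. The groups did not overlap and the libraries within each were close, with coefficients of variation of 6.57% and 3.10%. The means of 98.5 ± 6.43 CPM (SD, n = 3) and 31.9 ± 0.977 CPM (SD, n = 2) differed 3.09-fold (log2 fold change 1.63, SE 0.14), rank 47 of all tested genes by log2 fold change and rank 6 by p.

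Egr3 (ENSMUSG00000033730, GRCm38 chromosome 14, 70077203 to 70082614, plus strand) encodes the family member that acts with EGR2 in lymphocytes. Its RNA lay at 92.8, 95.1 and 106 CPM in Fli1 KO and at 101 and 83.6 CPM in NTC. The groups overlapped, with means of 98.1 ± 7.28 CPM (SD, n = 3) and 92.4 ± 12.5 CPM (SD, n = 2). The log2 fold change was 0.08, with a 95% interval from −0.20 to 0.37, whose upper bound is 1.29-fold. With library size alone as the scaling, which moves the median of all tested genes from −0.02 to −0.14, it was −0.04. Egr4 (ENSMUSG00000071341), the remaining EGR gene, was measured at 2.22 to 4.80 CPM across the 5 libraries, a mean of 1.01 times background, and was not called.

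**Figure D1:**
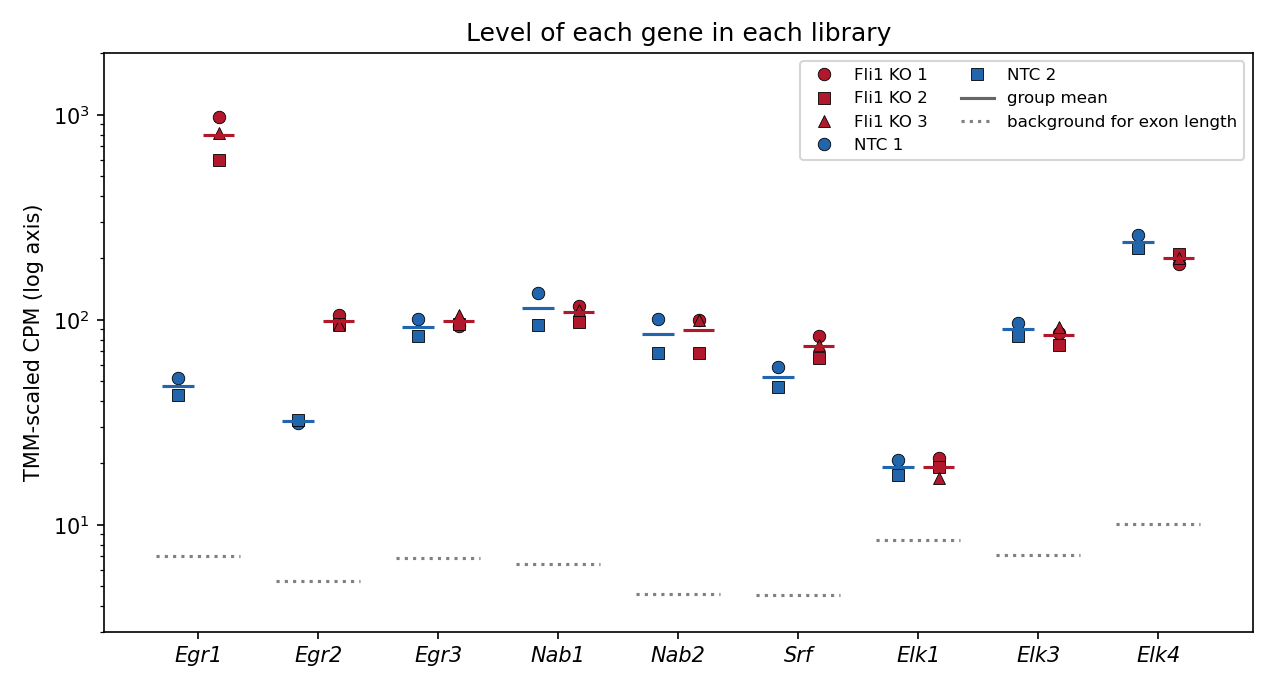
Level of each of the 9 genes in each library, in TMM-scaled CPM on a log axis, with points for single libraries, solid lines for group means and dotted lines for the background expected from exon length. Egr1 and Egr2 lie higher in all 3 Fli1 KO libraries than in both NTC libraries, Srf is separated by a small gap, Elk4 lies slightly lower, and the other 5 genes overlap.

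With levels set per kilobase of exon, so that genes can be compared, the make-up of the EGR RNA differed between the groups. In NTC, Egr3 was the most abundant EGR transcript, at 23.0 and 19.0 CPM per kb, against 11.6 and 9.55 for Egr1 and 9.18 and 9.59 for Egr2. There Egr1 made up 26.6% and 25.1% of the family's summed level. In Fli1 KO, Egr1 made up 80.6%, 72.9% and 77.7% of it. The summed level of the 3 EGR genes was 269, 183 and 233 CPM per kb in Fli1 KO and 43.8 and 38.1 in NTC. Probes capture different genes with different yield, so these ratios between genes are approximate, while the same ratio can be compared across libraries.

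Nab1 (ENSMUSG00000002881, GRCm38 chromosome 1, 52457294 to 52500679, minus strand), the constitutive EGR corepressor, lay at 117, 97.7 and 112 CPM in Fli1 KO and at 135 and 93.8 CPM in NTC. The Fli1 KO libraries all lay between the NTC libraries, and the log2 fold change was −0.07 (95% interval −0.39 to 0.24). Nab2 (ENSMUSG00000025402, GRCm38 chromosome 10, 127660918 to 127668568, minus strand), the corepressor whose gene EGR factors induce, lay at 99.7, 69.0 and 99.3 CPM in Fli1 KO and at 101 and 69.1 CPM in NTC. Both groups covered the same range, and the log2 fold change was 0.06 (95% interval −0.31 to 0.44). The interval for Nab2 has an upper bound of 1.35-fold. The spread between the NTC libraries was wider for both corepressors, with coefficients of variation of 25.5% and 26.5%, than for Egr2. It was not confined to the NAB genes, as NTC 1 lay above NTC 2 for 8 members, all except Egr2. The root mean square log2 difference between NTC 1 and NTC 2 was 0.36. From NTC 1 and NTC 2, Fli1 KO 1 differed by 0.37 and 0.53, Fli1 KO 2 by 0.33 and 0.35, and Fli1 KO 3 by 0.32 and 0.46. The part of this library difference in the NAB values was not tested.

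Both NAB signs turned when 1 library was left out: Nab1 was at 0.23 without NTC 1 and at 0.02 without Fli1 KO 2, and Nab2 at −0.18 without NTC 2 and at 0.39 without NTC 1, none of them called. Per kb, the ratio of Nab2 to Nab1 lay between 0.985 and 1.24 in the 5 libraries. The summed EGR level was 4.30, 3.87 and 3.82 times the summed NAB level in Fli1 KO and 0.650 and 0.821 times in NTC. Exons of Nab2 share 1050 bases with the antisense gene Gm16229, 151 with Nemp1 and 40 with Stat6. Gm16229 held 5 to 10 counts per library and was not tested, and Nemp1 (log2 fold change 0.15) and Stat6 (0.17) were not called. How reads in shared bases were counted, and whether by strand, is not stated in the labels.

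**Figure D2:**
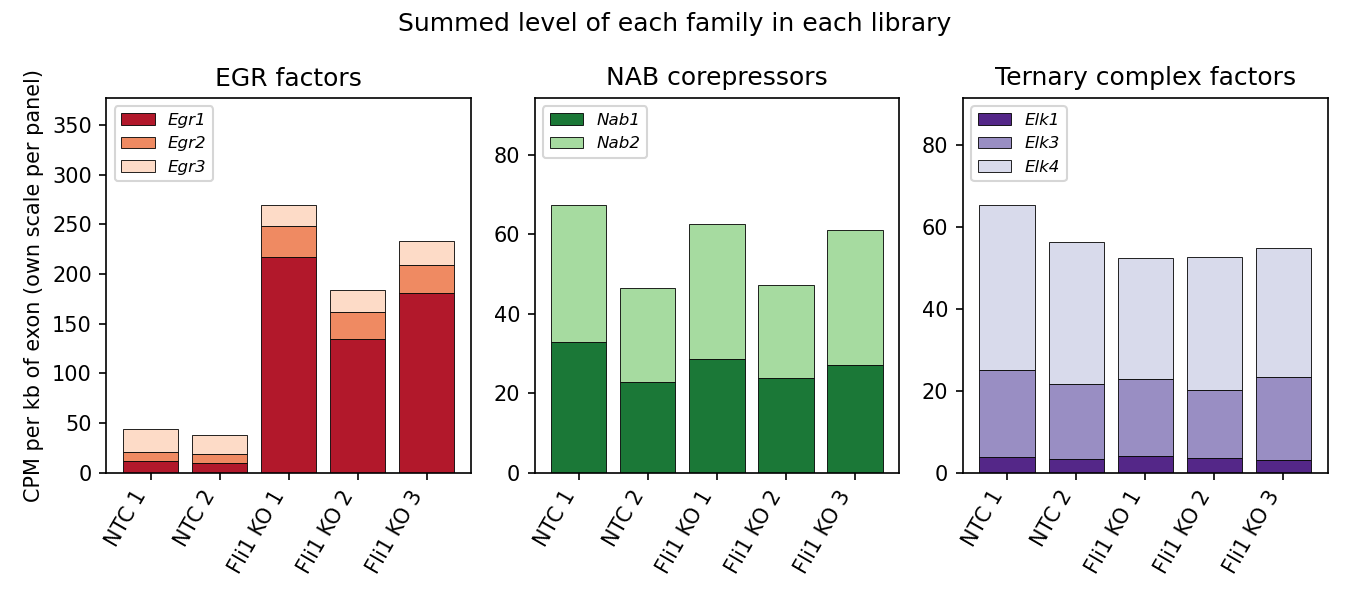
Stacked levels in CPM per kb of exon in each library for the EGR factors, the NAB corepressors and the ternary complex factors, with a separate scale for each panel starting at 0. The EGR stack stands at 183 to 269 in Fli1 KO, with Egr1 as most of it, against 38.1 and 43.8 in NTC. The NAB stacks overlap between the groups (46.4 to 67.3 in the 5 libraries). The ELK stacks lie slightly lower in Fli1 KO, at 52.3 to 54.7 against 65.3 and 56.4 in NTC.

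Srf (ENSMUSG00000015605, GRCm38 chromosome 17, 46548329 to 46556175, minus strand) encodes the factor on the CArG box and is known to drive its own promoter. Its RNA lay at 83.1, 65.3 and 75.0 CPM in Fli1 KO and at 58.6 and 46.8 CPM in NTC. The groups did not overlap, but the gap between Fli1 KO 2 and NTC 1 was smaller than the spread within either group. Fli1 KO averaged 74.5 ± 8.93 CPM (SD, n = 3) against 52.7 ± 8.35 CPM (SD, n = 2) in NTC, and the log2 fold change of 0.49 (95% interval 0.18 to 0.80) was not called. It was called in the fit without NTC 1, at 0.69, and was 0.35 without NTC 2. Each of these fits has 1 NTC library, and calls over all genes also rose without NTC 1.

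The ternary complex factors carried no call. Elk4 (ENSMUSG00000026436, GRCm38 chromosome 1, 132007607 to 132032612, plus strand), also named SAP-1 and known for its role in thymocytes, lay at 188, 209 and 201 CPM in Fli1 KO and at 258 and 223 CPM in NTC. All 3 Fli1 KO libraries lay below both NTC libraries, with a log2 fold change of −0.27 (95% interval −0.55 to 0.01). Elk3 (ENSMUSG00000008398, GRCm38 chromosome 10, 93247414 to 93311135, minus strand), which represses until it is phosphorylated, lay at 86.6, 74.9 and 91.7 CPM and at 96.4 and 83.4 CPM. Elk1 (ENSMUSG00000009406, GRCm38 chromosome X, 20933395 to 20950608, minus strand), the best studied of them, lay at 21.2, 19.1 and 16.9 CPM and at 20.8 and 17.5 CPM. Both overlapped, at log2 fold changes of −0.09 (95% interval −0.38 to 0.19) and −0.01 (−0.38 to 0.35). Elk1 was the only one of the 9 genes under 3 times background, at 2.26 times. Elk3 turned to 0.04 without NTC 1 and Elk1 to 0.14.

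Per kb, Elk4 made up 56.1% to 62.0% of the summed ELK level in the 5 libraries, Elk3 31.2% to 36.9% and Elk1 5.76% to 7.52%. Exons of Elk3 share 316 bases with Cdk17 on the opposite strand, those of Elk4 share 84 with Mfsd4a and 104 with Gm29103, and those of Elk1 share 76 with Uxt. Cdk17 (log2 fold change 0.21), Mfsd4a (−0.45, at 0.941 times background) and Uxt (0.19) were not called, and Gm29103 had 0 counts in all libraries.

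In the fit over all genes, 2 of the 9 genes, Egr1 and Egr2, were called higher at an adjusted p under 0.05 (edgeR quasi-likelihood test), where 0.458% of all tested genes were. None was called lower, where 0.0883% of all genes were; at an unadjusted p under 0.05, edgeR gave 0 lower, and DESeq2 and limma-voom called 0. In 3 genes, Egr1, Egr2 and Srf, every Fli1 KO library lay above every NTC library, as in 11.9% of all tested genes, and in 1, Elk4, every one lay below, as in 13.7%. Since the comparison was known when the genes were grouped, nothing is read from these shares. Egr1 and Egr2 were called in each of 16 alternative fits, with log2 fold changes from 3.90 to 4.25 and from 1.50 to 1.70.

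**Figure D3:**
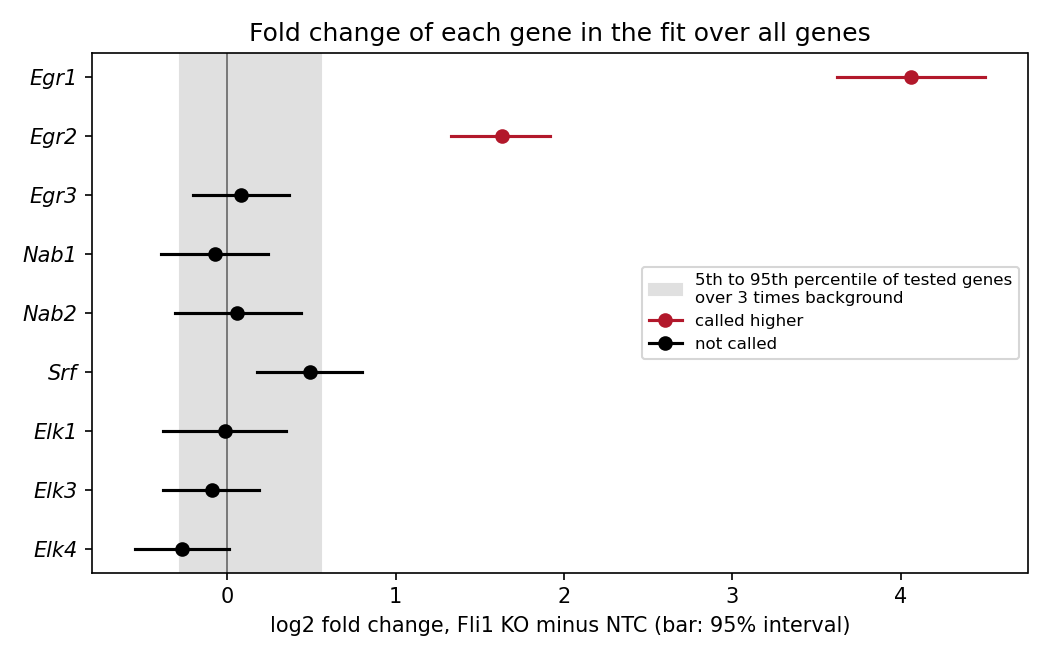
Log2 fold change of each gene, Fli1 KO minus NTC, as a point with its 95% interval as a bar, over a grey band from the 5th to the 95th percentile of tested genes over 3 times background. Egr1 (4.06) and Egr2 (1.63) lie right of the band, which ends at 0.56, Srf lies inside it with an interval above 0, and the other 6 intervals include 0.

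Ordered by level per kb, the genes of NTC ran from Elk4 (37.5 CPM per kb) through Nab2 (29.0), Nab1 (27.9), Egr3 (21.0), Elk3 (19.8) and Srf (18.2) to Egr1 (10.6), Egr2 (9.39) and Elk1 (3.56). Neighbours from Nab2 down to Srf overlapped, as did Egr1 and Egr2. In Fli1 KO, Egr1 came first at 177, above the range of all others, and Elk4 (31.1), Nab2 (30.4), Egr2 (29.0), Nab1 (26.6), Srf (25.7) and Egr3 (22.3) followed with each range overlapping the next. Elk3 (18.5) and Elk1 (3.54) came last and apart.

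The transcripts with the most similar profile over the 5 libraries were sought among 14507 tested genes whose mean reached 5 CPM, by the root mean square difference of centred log2 CPM. Nearest to Egr1 were Irs2, an insulin receptor adaptor, at 0.82 log2 units, Ier2, an immediate early gene, at 0.85 and Ier3, a survival gene, at 0.92. Each had a smaller fold change (2.47, 2.34 and 2.19 on the log2 scale). The distance is not scaled for the size of a change. The gene with the largest increase therefore lies far from others by this measure, and nothing is read from its distances. Egr2 had near neighbours, namely Dusp6, the phosphatase that switches off ERK, at 0.11, the translation factor gene Eif1 at 0.11 and the RNA decay factor gene Zfp36 at 0.16. Their log2 fold changes (1.48, 1.47 and 1.55) were close to that of Egr2. With 5 libraries in 2 groups, genes of similar fold change lie near each other by this measure. Nothing is therefore read from the Egr2 distances either. Dusp6 lay at 222, 212 and 209 CPM in Fli1 KO and at 82.4 and 71.4 CPM in NTC.

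Kinases and adaptors that carry signals to the ternary complex factors, and 4 further lists around the EGR and SRF factors, were counted in the same fit. All were put together with earlier results known and are no independent evidence of a direction. Of 33 tested cascade genes, 1 was called higher and 0 lower, where 0.458% and 0.0883% of all tested genes were. The median log2 fold change was 0.20, beside −0.02 for all tested genes and 0.11 for tested genes over 3 times background. The called gene was Map2k1, which encodes the ERK kinase MEK1. The NTC libraries had 64.7 and 47.2 CPM of it and the Fli1 KO libraries 111, 83.3 and 94.5 CPM, so it rose 1.71-fold (edgeR adjusted p = 0.0202, SE 0.16 on a log2 difference of 0.78). The call ended without Fli1 KO 1 (0.67, edgeR adjusted p = 0.286) or Fli1 KO 3 (0.80, 0.194). It also ended without NTC 2, at 0.58. Map2k1 was at 1.04 without NTC 1, and both of these last fits have 1 NTC library. At an unadjusted p under 0.05, edgeR gave 7 higher and 1 lower of the 33, beside 1599 higher and 1136 lower of all 30580 tested genes and 1171 higher and 218 lower of the 7605 over 3 times background. DESeq2 and limma-voom each called 1 higher and 0 lower.

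Other immediate early genes reached by SRF and its partners included 6 called higher and 0 lower of 18 tested, with a median of 0.61. The median was −0.02 for all tested genes and 0.11 for tested genes over 3 times background. Of the 18 genes, 14 were positive and 4 negative, and 11 lay over 3 times background. Of all tested genes, 0.458% were called higher and 0.0883% lower. Ier2 rose 5.06-fold (61.9 and 56.2 CPM in NTC, 249 to 381 CPM in Fli1 KO, edgeR adjusted p = 1.5e-07), Ier3 4.56-fold (adjusted p = 7.7e-07) and Zfp36 2.92-fold (adjusted p = 6.3e-06). Fos, an AP-1 subunit and the classical SRF target, rose by 2.19 on the log2 scale (adjusted p = 1.6e-04) from 2.43 and 3.34 CPM to 10.3 to 16.1 CPM. Its NTC mean was 0.776 times background and its Fli1 KO mean 3.58 times, so the Fos fold is taken over a level not above background and its size is uncertain. At an unadjusted p under 0.05, edgeR gave 11 higher and 0 lower. Beside these stand 1599 and 1136 of all 30580 tested genes, and 1171 and 218 of the 7605 over 3 times background. DESeq2 and limma-voom called none lower.

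SRF reads actin and cytoskeletal genes through the cofactors MRTFA and MRTFB instead of the ternary complex factors. These genes and the 2 cofactor genes had 0 calls in either direction among 22 tested by edgeR. Of all tested genes, 0.458% were called higher and 0.0883% lower. With shares this low, 0 calls among 22 genes cannot tell the list from all tested genes. At an unadjusted p under 0.05, 6 were higher and 1 lower, the cofactor gene Mrtfb (log2 fold change −0.32). Beside these stand 1599 higher and 1136 lower of all 30580 tested genes, and 1171 and 218 of the 7605 over 3 times background. DESeq2 called 1 higher and limma-voom 0. The median was 0.15. Actg1, the gamma actin gene, had the smallest p (251, 161 and 216 CPM in Fli1 KO against 146 and 102 in NTC; log2 difference 0.75, edgeR adjusted p = 0.0937). It was called without Fli1 KO 2 (adjusted p = 0.0108). Actg1 was at 1.05 without NTC 1 and 0.52 without NTC 2, fits with 1 NTC library each. Over the list, the median was 0.35 without NTC 1 and −0.05 without NTC 2.

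Genes reported as EGR targets in lymphocytes lay on both sides, 17 positive and 11 negative of 28, beside 14553 and 16027 of all tested genes and 5365 and 2240 of those over 3 times background, with a median of 0.08, and of −0.05 with library size alone. The 2 called higher were Socs1 and Socs3, which encode inhibitors of cytokine signalling. Of all tested genes, 0.458% were called higher. Socs1 rose 2.01-fold: Fli1 KO had 78.7, 64.4 and 75.4 CPM and NTC 38.7 and 33.6 CPM (edgeR adjusted p = 7.1e-04, SE 0.15 on a log2 difference of 1.01). Socs3 rose 1.97-fold: Fli1 KO had 52.3, 32.3 and 40.5 CPM and NTC 19.8 and 22.6 CPM (edgeR adjusted p = 0.0112, SE 0.19 on a log2 difference of 0.98). It was not called without Fli1 KO 1 (0.79, adjusted p = 0.192) or Fli1 KO 3 (1.01, adjusted p = 0.0965). DESeq2 called 4 higher and limma-voom 3, and upper-quartile scaling and the GC correction gave 4 each. None was called lower by edgeR, DESeq2 or limma-voom, with 3 lower and 9 higher at an unadjusted p under 0.05 by edgeR. At that p, 1136 were lower and 1599 higher of all 30580 tested genes, and 218 and 1171 of the 7605 over 3 times background. Calls numbered 5 without Fli1 KO 2 and 1 without Fli1 KO 1 or Fli1 KO 3, beside 219, 46 and 57 higher calls over all genes. The median was 0.08 to 0.14 over the left-out libraries, highest without NTC 1.

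The corepressor complexes that NAB proteins and ternary complex factors recruit had 1 gene called lower and 0 higher of 17, where 0.0883% and 0.458% of all tested genes were. The median was 0.10, and −0.03 with library size alone. Chd3, a remodelling ATPase of the NuRD complex, fell 1.62-fold: Fli1 KO had 114, 138 and 152 CPM and NTC 206 and 230 CPM (edgeR adjusted p = 0.0190, SE 0.14 on a log2 difference of −0.69). It was not called without Fli1 KO 1 (−0.58, adjusted p = 0.327), Fli1 KO 3 (−0.77, 0.158) or NTC 2 (−0.60, 0.0990). For genes called higher the count was 0 with edgeR, DESeq2 and limma-voom. At an unadjusted p under 0.05 in edgeR, 3 were higher, beside 1599 of all 30580 tested genes and 1171 of the 7605 over 3 times background.

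**Figure D4:**
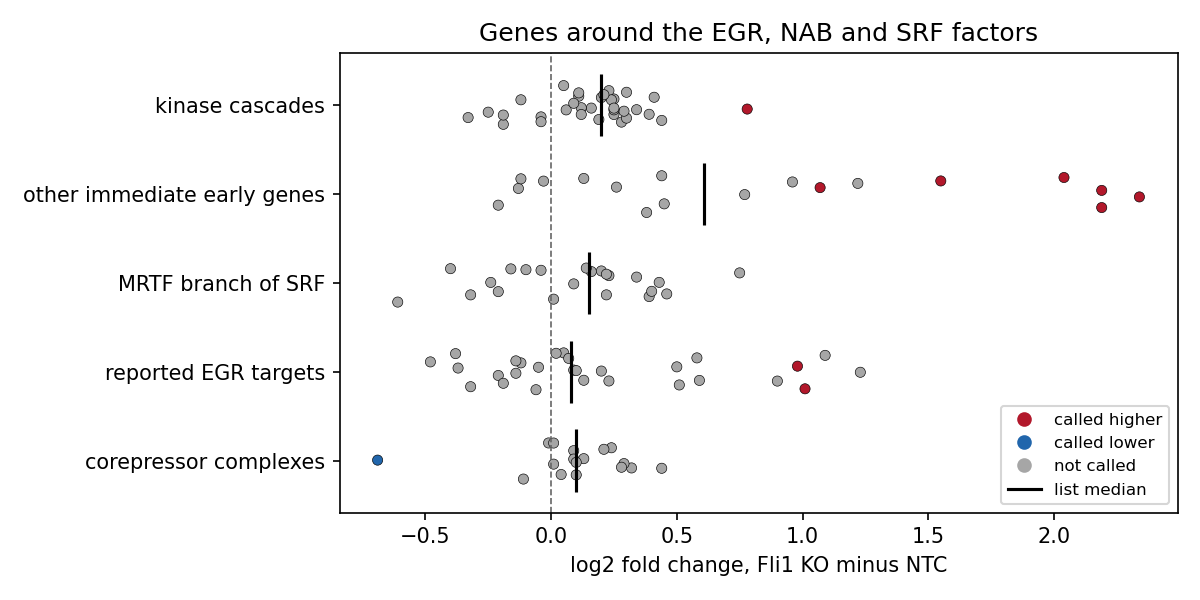
Log2 fold change, Fli1 KO minus NTC, of each tested gene in 5 lists, with red for genes called higher, blue for genes called lower, grey for genes not called and a black line at each list's median. The immediate early genes reach furthest right, with 6 of 18 called and a median of 0.61, while the other medians lie between 0.08 and 0.20.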

How the data were processed

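The 5 RNA libraries of mouse spleen NK cells were grouped by label into Fli1 KO (3) and NTC (2). Per the labels' protocols, libraries were made from column-extracted RNA with a probe enrichment kit. Per the submitters' processing notes, FastQC 0.12.0, Trimmomatic 0.39, STAR 2.7.11 and mm10 were used. Neither the counter nor its strand setting or annotation release is named there. The authors deposited unnormalized counts per Ensembl gene ID, 1 column for each library.

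IDs were matched to symbols for 52073 of 56691 IDs, and positions, exon lengths and transcript GC content came from GENCODE M21 (GRCm38). Rps6ka4, on the kinase list, was not analysed here. Genes were kept with filterByExpr at 10 counts (30580 genes), scaled with TMM and tested in edgeR 4.0.16 (R 4.3.3) by the robust quasi-likelihood method, with Benjamini-Hochberg adjustment over all tested genes. A call is an adjusted p under 0.05. SEs come from the coefficient and its F statistic. The fit was tested on simulated data with known differences. Recovery was 25.4% at a 1.5-fold difference, 71.6% at 2-fold and 100% at 4-fold. The fit made 152 calls there, and 21 were false, a larger share than the cut-off of 0.05 aims for. A missing call is therefore weak evidence against a difference near 1.5-fold. The calls given here may hold more false ones than the cut-off states. The members and lists were chosen with earlier results of these data known.

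Named genes are the 9 members, genes that overlap their exons, per list all called genes if at most 5 (otherwise the 4 with the smallest adjusted p, or the 1 with the smallest p if none), and the 3 nearest profiles of each called member. Alternatives were library size alone, DESeq2 size factors or upper quartiles as the scaling, no filter, at least 5 CPM in 2 libraries, DESeq2 1.42.0, limma-voom (limma 3.58.1), a lowess correction for GC content (span 0.3), the replicate block, each library left out and, added after seeing the data, a fit on the 7605 genes over 3 times background. A lone NTC library was taken to vary like the Fli1 KO group.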

Additional observations from a re-analysis of the deposited data

How the results depend on the processing

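Egr1 and Egr2 kept their direction and their call in all 16 alternatives, at 3.92 to 4.10 and 1.50 to 1.70 without leaving out a library and at 3.90 to 4.25 and 1.58 to 1.67 with 1 library left out. Members called higher numbered 2 to 3 with 1 library left out, and members called lower 0. Srf kept its direction and was called in 3 alternatives. These were the replicate block (0.49, adjusted p = 0.00405), also with GC correction (0.60), and the fit without NTC 1. Srf lay at 0.35 to 0.69 over the left-out libraries, with 0.69 in that fit, which has 1 NTC library. Elk4 kept its direction, at −0.39 to −0.14, and was called in no alternative. The other 5 members were called in none and changed sign in at least 1. Egr3 was at −0.04 with library size alone, −0.03 among genes over 3 times background and −0.04 to 0.25 with a library left out. Nab1 ranged from −0.30 to 0.23 with a library left out. Nab2 was at −0.08 with library size alone, −0.01 with the replicate block, −0.06 among genes over 3 times background and −0.18 to 0.39 with a library left out. Elk1 was at 0.01 with DESeq2 size factors and with DESeq2, 0.00 without a filter, 0.07 with the replicate block, 0.02 with GC correction, 0.11 with both and −0.12 to 0.14 with a library left out. Elk3 ranged from −0.19 to 0.04 with a library left out and from −0.22 to −0.05 otherwise.

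The 140 genes called higher and 27 lower became 92 and 71 with library size alone, which moved the median of all genes to −0.14, 239 and 56 without a filter, 728 and 193 with the replicate block, 843 and 174 with the block and GC correction, 137 and 59 among genes over 3 times background, and 46 to 703 and 3 to 174 with a library left out. Over the related lists, 9 genes were called higher and 1 lower. The counts were 14 higher with DESeq2, 24 higher and 2 lower with the replicate block, 25 higher with the block and GC correction, and 7 to 27 higher and 0 to 1 lower with a library left out. The cause of these moves was not tested. Replicate numbers are shared between the groups, but the labels do not say that a number marks a shared animal or day. Of the 2 shared numbers, deviations correlated at 0.29 for number 1 and at 0.43 for number 2. With 2 NTC libraries their deviations mirror each other, so each Fli1 KO library correlates positively with 1 of them. Fli1 KO 3, which has no partner, reached 0.20 with NTC 1. These values cannot decide whether numbers mark pairs, so the block is given as an alternative only. Counts of 84 to 120 per library for Elk1 limit its precision.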
